A study of Mus musculus with 4 samples.

Results

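Aggrecan (Acan) and versican (Vcan), and Adamts1, Adamts4 and Adamts5, proteases that cut them, were followed through smooth muscle cells and fibroblasts of the mouse ascending aorta. These 5 genes were selected on an earlier reading of these libraries, in which Acan had the highest ratio of CNC AngII over SHF AngII in smooth muscle cells. They were read among the 18113 genes common to the 3 count files used. Smooth muscle cells were taken as cells with at least 5 Myh11 UMIs and 0 Pdgfra UMIs. Fibroblasts were taken as cells with at least 1 Pdgfra UMI and at most 2 Myh11 UMIs. A UMI (unique molecular identifier) marks 1 captured transcript. The smooth muscle gate held 2259 of 8374 kept cells in SHF baseline, 4649 of 9299 in SHF AngII and 6385 of 10194 in CNC AngII. The fibroblast gate held 3939, 2640 and 842 cells in the same order.

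Aggrecan and versican are large chondroitin sulfate proteoglycans of the hyalectan family, which bind hyaluronan through their N-terminal globular domain and swell the matrix with water. Aggrecan is best known from cartilage, and versican is the main large proteoglycan of the arterial wall. ADAMTS1, ADAMTS4 and ADAMTS5 are secreted zinc metalloproteases that cleave both core proteins. Loss of ADAMTS activity has been linked to proteoglycan build-up in the aortic media.

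All groups came from the aorta of male Mef2c-mTmG mice, whose ages are not given in the sources used here. The mTmG reporter switches from a red to a green membrane fluorophore where Cre recombinase has acted, and Mef2c names the driver in the strain label, which does not give the promoter fragment. Living cells were sorted by lineage into SHF (second heart field) and CNC, a group name that the labels do not spell out, and were captured with 10x Chromium 3' v3 chemistry. SHF baseline was taken from mice at baseline, and SHF AngII and CNC AngII after 3 days of infusion of angiotensin II (AngII), the pressor hormone of the renin system. The design compared the response to AngII between lineages. CNC cells at baseline were not analysed here. There was 1 library per group, and whether animals were pooled is not stated in the labels. No difference below has a replicate check, and no test was possible. Every interval covers counting error at 95% only.

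The libraries held 92474476 UMIs (SHF baseline), 147854476 (SHF AngII) and 150954701 (CNC AngII). Median depth in the smooth muscle gate was 12441, 13336 and 13450 UMIs per cell in that order, and in the fibroblast gate 9534, 15486 and 12380. Between 29 and 34 cell barcodes were shared by each pair of libraries. Defining markers were present in both gates: each of 8 smooth muscle markers was found in 96.7 to 100% of smooth muscle cells, and each of 8 fibroblast markers in 77.8 to 100% of fibroblasts. The 8 macrophage markers summed to 2.61, 1.40 and 342 CPM (UMIs per 1e6 UMIs of the same cells) in the smooth muscle gate of SHF baseline, SHF AngII and CNC AngII. C1qa, C1qb, C1qc and Adgre1 stood at 0 in SHF baseline, and Ptprc and Adgre1 in SHF AngII. A list of 7 immediate early genes, chosen after its values were seen, summed to 10234, 6337 and 5623 CPM there and to 13592, 6695 and 6450 CPM in fibroblasts. Median mitochondrial shares of the smooth muscle gate were 7.36, 5.43 and 5.16%. The part of these differences in the results was not tested.

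In GRCm38 (GENCODE M21) Acan lies on the plus strand at chr7:79053483-79115099 and Vcan on the minus strand at chr13:89655312-89742509. Adamts1 (chr16:85793827-85803113) and Adamts5 (chr16:85856173-85901828) lie on the same strand, the minus strand, 53059 bases apart with 0 protein-coding genes between them. Adamts4 lies on the plus strand at chr1:171250421-171260637. Promoters of 3 of the 5 genes were matched in RefSeq (GRCm38.p6). They are printed here, 250 bases upstream of the RefSeq start in the direction of the gene, because Acan and Vcan are the pair of substrates compared throughout and Adamts1 is the only protease with a matched promoter. Capitals mark GGGCGG and TATAAA, searched on both strands.

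Acan (chr7:79052976-79053225, plus): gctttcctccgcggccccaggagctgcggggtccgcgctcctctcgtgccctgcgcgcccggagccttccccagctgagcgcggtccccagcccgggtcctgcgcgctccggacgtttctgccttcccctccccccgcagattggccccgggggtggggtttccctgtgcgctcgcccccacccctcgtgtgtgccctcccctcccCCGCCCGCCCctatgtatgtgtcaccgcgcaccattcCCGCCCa

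Vcan (chr13:89742513-89742762, minus): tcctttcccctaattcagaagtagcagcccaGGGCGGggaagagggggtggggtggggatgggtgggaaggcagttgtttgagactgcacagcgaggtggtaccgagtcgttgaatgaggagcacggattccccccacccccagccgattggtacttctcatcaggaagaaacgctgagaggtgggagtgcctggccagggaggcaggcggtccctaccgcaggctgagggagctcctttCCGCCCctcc

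Adamts1 (chr16:85803114-85803363, minus): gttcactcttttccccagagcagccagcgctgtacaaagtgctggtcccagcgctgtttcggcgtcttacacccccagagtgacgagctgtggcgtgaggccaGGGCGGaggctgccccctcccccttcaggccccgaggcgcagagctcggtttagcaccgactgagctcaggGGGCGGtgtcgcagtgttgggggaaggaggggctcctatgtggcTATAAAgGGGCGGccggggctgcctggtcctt

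The Acan stretch is 74.4% G and C, Vcan 62.4% and Adamts1 65.6%, beside a median of 52.4% over 32817 RefSeq promoters. GGGCGG, on either strand, occurs 3 times upstream of Acan, with 1 overlapping pair, 2 times upstream of Vcan and 3 times upstream of Adamts1. It occurs in 32.7% of all promoters. TATAAA was found upstream of Adamts1 alone among these 3 genes and occurs in 12.4% of all promoters. TGANTCA was also searched and was found in none of the 3 windows (6.75% of all promoters). A match in these letters is a description of the window only.

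Acan was a smooth muscle transcript in all 3 libraries, and its level there differed most between libraries among the 5 genes. It was at 20.9 CPM in SHF baseline cells (95% Poisson interval 19.3 to 22.6, 618 UMIs), at 81.8 CPM in SHF AngII (79.7 to 83.9, 5681 UMIs) and at 217 CPM in CNC AngII (214 to 220, 20847 UMIs). The 3 levels were in the order SHF baseline, SHF AngII, CNC AngII, with no overlap of their counting intervals. The level in SHF AngII was 3.91 times that in SHF baseline, a log2 ratio of 1.97 (1.85 to 2.09), or 1.92 after 1 CPM is added to both levels, the scale used for all other ratios. CNC AngII stood 2.66 times above SHF AngII, with a log2 ratio of 1.41 (1.37 to 1.45), or 1.40 on the scale with 1 CPM added. Since Acan was chosen for its level in these libraries, these values describe it and support nothing further.

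Among genes with a mean of at least 10 CPM, 2.86% had a log2 ratio of at least 1 for SHF AngII over SHF baseline in smooth muscle cells, and 3.53% had one of at most -1, 6.38% in all. In CNC AngII over SHF AngII the shares were 0.443 and 0.355%, 0.798% in all. Acan alone of the 4 members at that minimum (Adamts4 was below it) was past 1, in both comparisons. The median log2 ratio of all genes was -0.10 in the first comparison and 0.00 in the second. TMM scaling, which matches libraries on the bulk of their genes in place of total UMIs, moved the former to 0.08 and the Acan ratio to 2.09. It changed the number of genes past the threshold from 200 higher and 247 lower to 301 and 154.

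**Figure D1:**
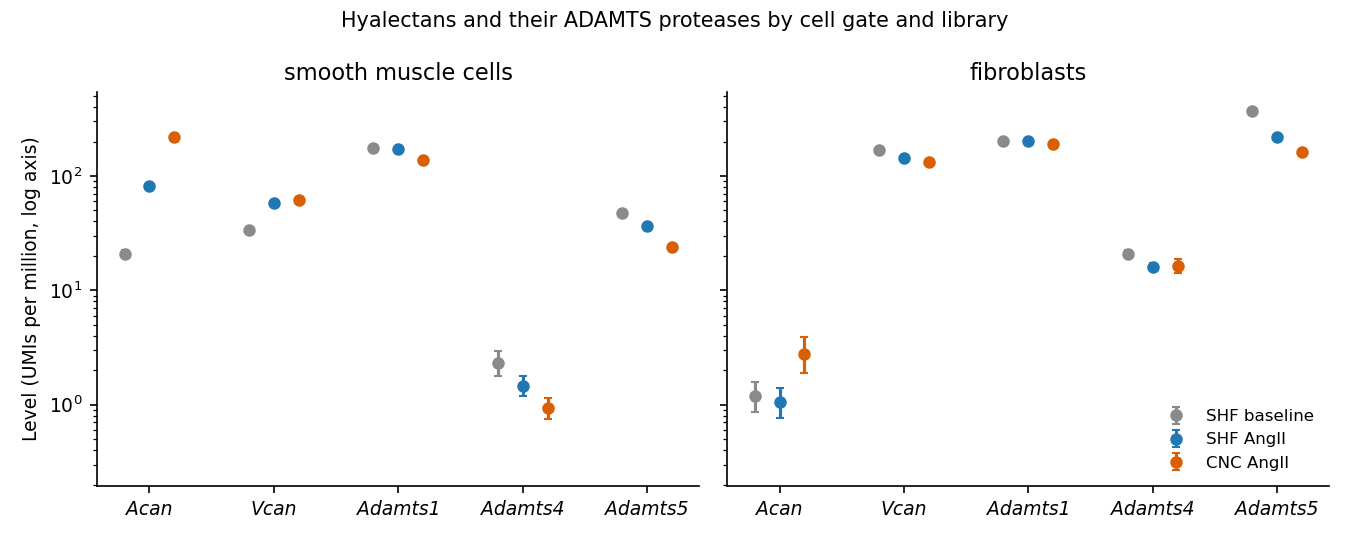
Levels of the 5 genes in CPM on a log axis, in smooth muscle cells (left) and fibroblasts (right) of the 3 libraries; points are levels of summed UMIs and bars are 95% Poisson intervals, which are hidden by the point where narrow. Acan ran from 20.9 to 217 CPM in smooth muscle cells and stayed at or under 2.79 CPM in fibroblasts, while Adamts5 was highest in fibroblasts of SHF baseline, at 372 CPM.

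More cells carried Acan in the libraries with the higher level, and carrying cells also held more of it. In SHF baseline 15.2% of smooth muscle cells had an Acan UMI (exact binomial interval 13.8 to 16.8%), against 37.2% in SHF AngII (35.8 to 38.6%) and 65.8% in CNC AngII (64.7 to 67.0%). After every cell was thinned to 5000 UMIs, with 45, 59 and 82 shallower cells left out, the shares were 7.41, 22.9 and 47.6%. Cells with at least 1 Acan UMI held a mean of 1.30, 1.70 and 2.20 Acan UMIs after thinning. At least 5 Acan UMIs were found in 0.0903, 0.893 and 4.20% of the thinned cells, and the highest count in any cell was 5, 10 and 13. In CNC AngII the 10% of cells with the most Acan held 44.6% of all its thinned UMIs. The variance of Acan UMIs over their mean was 1.55, 2.20 and 2.30 in the same order, above the value of 1 that counting from 1 shared level would give.

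**Figure D2:**
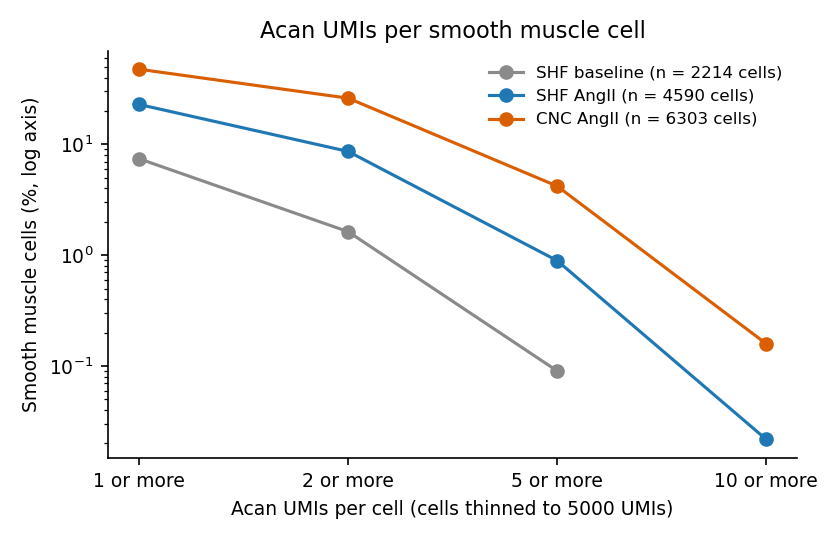
Share of thinned smooth muscle cells, in percent on a log axis, that held at least 1, 2, 5 or 10 Acan UMIs, with 1 line per library. CNC AngII lay above SHF AngII and SHF AngII above SHF baseline at each of the 4 limits, and no cell of SHF baseline reached 10.

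Fibroblasts held almost no Acan. Its level was 1.19 CPM in SHF baseline (45 UMIs), 1.05 in SHF AngII (47 UMIs) and 2.79 in CNC AngII (32 UMIs), and a UMI was found in 0.330, 0.985 and 2.38% of fibroblasts. Leukocytes of CNC AngII, gated on Ptprc and not known to make aggrecan, held 1.82 CPM (1.24 to 2.57), with a UMI in 2.21% of 1450 cells. The fibroblast level of CNC AngII overlapped this background, so Acan above it was not detectable at this depth, although after thinning it stood at 11.3 CPM in 106 fibroblasts with Spp1 and 1.51 CPM in 663 without, from 3 and 5 cells with a UMI. In smooth muscle cells the level was 17.6 times that of fibroblasts in SHF baseline, 78.1 times in SHF AngII and 77.8 times in CNC AngII. Of all Acan UMIs in kept cells, 69.7, 89.9 and 93.2% lay in the smooth muscle gate. No Acan UMI was seen in the 49, 29 and 29 gated endothelial cells, which allows up to 8.64, 11.5 and 18.1 CPM by the upper exact Poisson bound.

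The position of the gate bore on these levels. In cells just inside it, with 5 to 9 Myh11 UMIs, Acan stood at 26.6, 52.1 and 171 CPM in SHF baseline, SHF AngII and CNC AngII. In cells just outside, with 3 to 4 Myh11 UMIs and 0 Pdgfra UMIs, it stood at 3.96, 81.3 and 80.9 CPM, from 36, 77 and 91 cells. Just inside the fibroblast gate, with 1 Pdgfra UMI, Adamts5 stood at 309, 185 and 131 CPM. In cells just outside it, with 0 Pdgfra UMIs, at most 2 Myh11 UMIs and no leukocyte or endothelial call, Adamts5 stood at 265, 145 and 57.0 CPM. Cells that held at least 3 Myh11 UMIs and at least 1 Pdgfra UMI, and so entered neither gate, carried Acan at 24.0, 53.4 and 188 CPM.

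Vcan, the other proteoglycan, was a transcript of both cell types and higher in fibroblasts. In smooth muscle cells it stood at 33.6 CPM in SHF baseline (31.5 to 35.8), 57.7 in SHF AngII (55.9 to 59.5) and 61.3 in CNC AngII (59.7 to 62.9). The log2 ratio of SHF AngII over SHF baseline was 0.76 (0.50 under the stricter cell filter), and that of CNC AngII over SHF AngII was 0.09. The latter was -0.03 under the stricter cell filter, so its direction depended on which cells were kept. In fibroblasts Vcan stood at 170 CPM (166 to 175), 144 (141 to 148) and 132 (126 to 139), with log2 ratios of -0.24 and -0.12. Smooth muscle cells and fibroblasts thus differed in sign in both comparisons, although TMM scaling moved the fibroblast ratio of SHF AngII over SHF baseline to -0.04 (-0.09 to 0.01). After thinning, 38.9% of fibroblasts in SHF baseline had a Vcan UMI (37.2 to 40.6%) and 44.2% in SHF AngII (42.3 to 46.2%), which goes against the levels, so no order is read from the fibroblasts of these libraries. The fibroblast level was 5.07 times that of smooth muscle cells in SHF baseline, 2.50 times in SHF AngII and 2.16 times in CNC AngII. CNC leukocytes held 7.50 CPM, under every value of the 2 gates.

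Aggrecan made up more of the hyalectan UMIs of smooth muscle cells in the AngII libraries. Acan gave 38.4% of the summed Acan and Vcan UMIs in SHF baseline (exact binomial interval 36.0 to 40.8%), 58.6% in SHF AngII (57.7 to 59.6%) and 78.0% in CNC AngII (77.5 to 78.5%). Acan was chosen for its ratio of CNC AngII over SHF AngII, so the step between those libraries restates that choice. In fibroblasts its share was 0.692, 0.721 and 2.07%. The other hyalectans, neurocan (Ncan) and brevican (Bcan), which are best known from brain, stayed at or under 1.67 CPM in both gates of all 3 libraries.

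Among the proteases, Adamts1 was the most evenly spread over the 2 gates. In smooth muscle cells it stood at 174 CPM in SHF baseline (170 to 179), 171 in SHF AngII (168 to 174) and 139 in CNC AngII (136 to 141). SHF AngII over SHF baseline gave a log2 ratio of -0.03, with a counting interval of -0.08 to 0.02, 0.15 under TMM scaling and -0.26 under the stricter cell filter. CNC AngII over SHF AngII gave -0.30. Fibroblast levels were 204, 203 and 189 CPM, with ratios of 0.00 and -0.10, and the former was 0.20 under TMM scaling. Fibroblasts held 1.17, 1.19 and 1.36 times the level of smooth muscle cells. Adamts1 is known to be inducible by inflammatory signals, and the immediate early list was higher in SHF baseline than in both AngII libraries; its part here was not tested.

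Adamts5, the main aggrecanase of mouse cartilage, was a fibroblast transcript that stood lower in each AngII library. Fibroblasts held 372 CPM in SHF baseline (366 to 378), 219 in SHF AngII (214 to 223) and 161 in CNC AngII (154 to 169). SHF AngII over SHF baseline gave a log2 ratio of -0.76, beside a median of -0.21 over all 7694 genes at the minimum there. Under TMM scaling the former was -0.56. CNC AngII over SHF AngII gave -0.44, beside a median of 0.01. Smooth muscle cells held 47.0 CPM (44.6 to 49.6), 36.7 (35.3 to 38.2) and 24.1 (23.1 to 25.1), with ratios of -0.35 and -0.59, and both gates gave the libraries the same order. Under the stricter cell filter, which left 120 smooth muscle cells in SHF baseline, the first of these reached -1, and under TMM scaling it was -0.17 (-0.27 to -0.08). CNC leukocytes held 0.682 CPM.

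Adamts4 was the least abundant protease. In fibroblasts it stood at 20.9 CPM in SHF baseline (19.4 to 22.4), 15.9 in SHF AngII (14.8 to 17.2) and 16.4 in CNC AngII (14.2 to 18.9), and the intervals of the AngII libraries overlapped. Its log2 ratios were -0.37, or -0.18 under TMM scaling, and 0.04. Smooth muscle cells held 2.30, 1.47 and 0.939 CPM, from 68, 102 and 90 UMIs, which were 9.07, 10.9 and 17.5 times under the fibroblast levels.

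In fibroblasts 15.3% of the genes at the minimum were past a log2 ratio of 1 for SHF AngII over SHF baseline, 4.64% higher and 10.7% lower. Comparing CNC AngII with SHF AngII, 0.610% were, 0.457% higher and 0.152% lower. None of the 4 members at the 10 CPM minimum was past it in either comparison. In smooth muscle cells the UMIs of Acan per summed UMI of Adamts1, Adamts4 and Adamts5 were 0.0935, 0.391 and 1.33 in SHF baseline, SHF AngII and CNC AngII. Those of Vcan per summed protease UMI were 0.150, 0.276 and 0.374. In fibroblasts the Vcan values were 0.286, 0.329 and 0.360. These are ratios of captured transcripts and not of protein or activity. The step of the Acan values from SHF AngII to CNC AngII restates the ratio for which Acan was chosen.

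Spp1, which encodes osteopontin, and Igfbp2, which binds insulin-like growth factors, were read in the same cells as Acan. In smooth muscle cells of SHF baseline, SHF AngII and CNC AngII, Spp1 stood at 0.541, 143 and 270 CPM, and Igfbp2 at 263, 1305 and 1450 CPM. After thinning, Spp1 was found in 0.181, 5.10 and 13.5% of smooth muscle cells, and Igfbp2 in 16.7, 58.1 and 72.7%. Spp1 was not limited to smooth muscle. Fibroblasts held it at 60.0, 250 and 561 CPM, above the smooth muscle level in each library, and leukocytes of CNC AngII at 337 CPM. Before thinning an Igfbp2 UMI was found in 12.3% of these leukocytes, at 11.4 CPM, and in 81.0% of smooth muscle cells. Myh11, the smooth muscle gate gene, was found in 18.2% of the same leukocytes, at 16.9 CPM, although their gate allows at most 2 Myh11 UMIs per cell. The source of the Igfbp2 UMIs in leukocytes was not tested.

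Smooth muscle cells with Spp1 carried Acan more often than those without in both AngII libraries. In SHF AngII 32.5% of 234 cells with Spp1 held Acan (exact binomial interval 26.5 to 38.9%), beside 22.4% of 4356 cells without (21.1 to 23.6%), a difference of 10.1 points. In CNC AngII the shares were 58.3% of 853 cells (54.9 to 61.6%) and 46.0% of 5450 cells (44.6 to 47.3%), a difference of 12.3 points. SHF baseline had 4 cells with Spp1 after thinning, none with Acan, and gave no comparison. Before thinning the shares were 50.1 and 35.8% in SHF AngII and 77.5 and 62.7% in CNC AngII. When cells were thinned to 2000 UMIs, the SHF AngII difference was 3.99 points, with an interval of -1.58 to 10.9 that takes in 0, and the CNC AngII difference was 9.73 points (5.61 to 14.0). The SHF AngII difference thus depended on the depth kept.

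The share of CNC AngII cells with Acan went from 46.0% at 0 Spp1 UMIs to 53.4% at 1, 59.4% at 2 to 4, 60.8% at 5 to 9 and 66.2% at 10 or more. In SHF AngII it was 22.4, 30.6, 35.5, 38.9 and 26.3% over the same bins, and the last 2 bins held 36 and 38 cells. Myh11, the gate gene, went from 2047 to 872 CPM over these bins in CNC AngII. Cells with Spp1 were deeper before thinning, with medians of 19983 UMIs in SHF AngII and 18831 in CNC AngII. When cells with a UMI of at least 2 markers of macrophages, endothelium, mesothelium or Schwann cells were left out, the CNC AngII difference was 11.5 points, from 674 cells with Spp1.

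The relation of Igfbp2 to Acan differed between the libraries. In CNC AngII 47.6% of cells with Igfbp2 and 47.6% of cells without held Acan, a difference of 0.0582 points. In SHF AngII the shares were 25.0% of 2665 cells (23.4 to 26.7%) and 19.9% of 1925 cells (18.1 to 21.8%), a difference of 5.13 points. In SHF baseline they were 6.23% of 369 cells and 7.64% of 1845, with overlapping intervals. Over bins of 0, 1, 2 to 4, 5 to 9 and 10 or more Igfbp2 UMIs, the CNC AngII share was 47.6, 51.3, 51.5, 49.4 and 42.2%, lowest in the cells with most Igfbp2. The SHF AngII share was 19.9, 27.7, 26.3, 25.7 and 22.6%. Without thinning, cells with Igfbp2 held Acan more often by 14.8 points in SHF AngII and by 10.8 in CNC AngII, so those differences depended on depth.

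**Figure D3:**
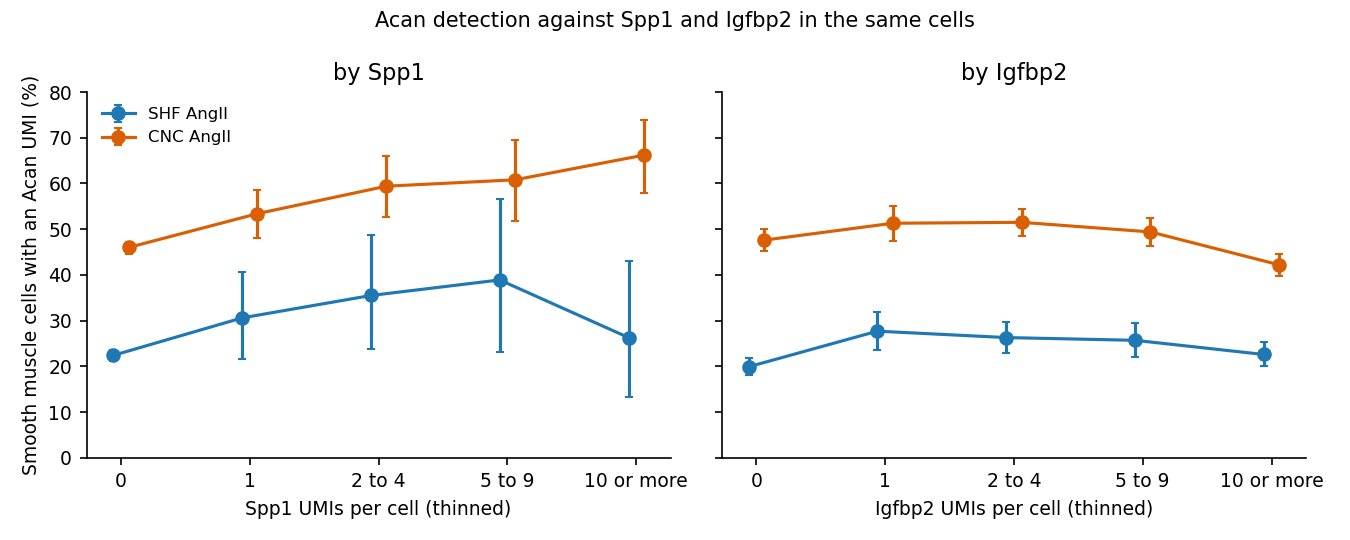
Share of thinned smooth muscle cells with an Acan UMI, in percent, by the number of Spp1 UMIs (left) or Igfbp2 UMIs (right) in the same cell; bars are exact 95% binomial intervals. CNC AngII went from 46.0 to 66.2% along the Spp1 bins and from 47.6 to 42.2% along the Igfbp2 bins. It stood above SHF AngII in every bin, an order of the libraries for which Acan was chosen.

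Cells were also split by both partners. In CNC AngII Acan was found in 45.2% of cells with neither, 46.2% with Igfbp2 only, 59.2% with Spp1 only and 57.8% with both. The same classes of SHF AngII gave 19.2, 24.7, 33.3 and 31.9%. CNC AngII stood above SHF AngII in all 4 classes with no overlap of the intervals, which cover counting error only. Acan was chosen for its ratio of CNC AngII over SHF AngII, so this order restates the choice and supports nothing further. Cells with neither partner held Acan at 60.4 CPM in SHF AngII (55.4 to 65.6) and at 190 in CNC AngII (180 to 200). The cells with both partners made up 3.01% of the SHF AngII gate and 8.95% of the CNC AngII gate.

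The members themselves were compared in the same way. Smooth muscle cells with Vcan held Acan in 28.4% of cases in SHF AngII, beside 21.5% of those without, and in 57.1 and 45.0% in CNC AngII. In SHF baseline the shares were 5.42 and 7.69%, with overlapping intervals. Adamts1 made little difference to the share with Acan, at 22.5 and 23.2% in SHF AngII and 48.2 and 47.2% in CNC AngII. Cells with Adamts5 held Acan in 42.8% of cases in CNC AngII, beside 48.2% without.

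Smooth muscle cells with Acan had other levels of a few genes, chosen after their values were seen. Desmin (Des), an intermediate filament of muscle, stood at 387 CPM in cells with Acan and 760 in cells without in SHF AngII, at 74.6 and 119 in CNC AngII, and at 284 and 526 in SHF baseline. Tnnt2, a cardiac troponin, stood at 415 and 654 CPM in SHF AngII and at 63.7 and 72.9 in CNC AngII. Elastin (Eln) stood at 3894 and 3558 CPM in SHF AngII and at 5461 and 4694 in CNC AngII. Myh11 was alike in the groups of CNC AngII, at 1947 and 1964 CPM. It stood at 2108 and 1984 CPM in SHF AngII and at 2432 and 2333 in SHF baseline. Sox9, a chondrogenic factor, stood at 31.2 and 20.6 CPM in SHF AngII and at 32.0 and 24.3 in CNC AngII. In SHF baseline Sox9 went the other way, at 15.9 and 32.6 CPM.

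Correlation with Acan across thinned smooth muscle cells was weak for every gene. Of 6442 genes found in at least 5% of cells of both AngII libraries, Col18a1 was most like it (r = 0.23 over 4590 cells of SHF AngII and 0.25 over 6303 of CNC AngII), followed by Fn1, Npnt, Postn and Mustn1, at 0.15 to 0.22. By the lower r of the AngII libraries, Spp1 ranked 119 and Igfbp2 6274. In SHF AngII and CNC AngII, r was 0.05 and 0.11 for Spp1 and 0.04 and -0.06 for Igfbp2, which thus differed in sign. Vcan in fibroblasts was most like Pi16 (0.24 over 2504 cells and 0.28 over 769), Mfap5 and Ly6a, among 6751 genes. Cells within a library share its depth and free RNA, and these values are descriptions.

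Pi16, a marker of adventitial fibroblasts, was also used to split the fibroblasts, after its likeness to Vcan was seen in the same cells. Higher Vcan with Pi16 in the AngII libraries therefore restates that likeness and is no further result. Vcan stood at 159 CPM with Pi16 and 142 without in SHF baseline, at 158 and 93.9 in SHF AngII, and at 149 and 82.2 in CNC AngII. Adamts5 was likewise higher with Pi16, at 404 and 199, 235 and 161, and 185 and 107 CPM in the same order. Adamts1 stood the other way, at 199 and 261 CPM in SHF baseline, 175 and 271 in SHF AngII, and 185 and 204 in CNC AngII. Its share of cells with a UMI was 45.3% with Pi16 and 44.6% without in SHF baseline, against the direction of the levels. In SHF AngII the shares were 47.0 and 57.4%, and in CNC AngII 45.2 and 45.9%. Adamts4 levels were lower with Pi16 too, at 19.8 and 32.9 CPM in SHF baseline, 14.6 and 16.6 in SHF AngII, and 16.4 and 18.4 in CNC AngII. No interval was computed for the levels split by Pi16. Adamts4 was found in 9.96% of fibroblasts with Adamts1 and 4.59% of those without in SHF baseline, and in 8.13 and 3.22% in SHF AngII. In CNC AngII the shares were 6.88 and 4.52%, with overlapping intervals.

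**Figure D4:**
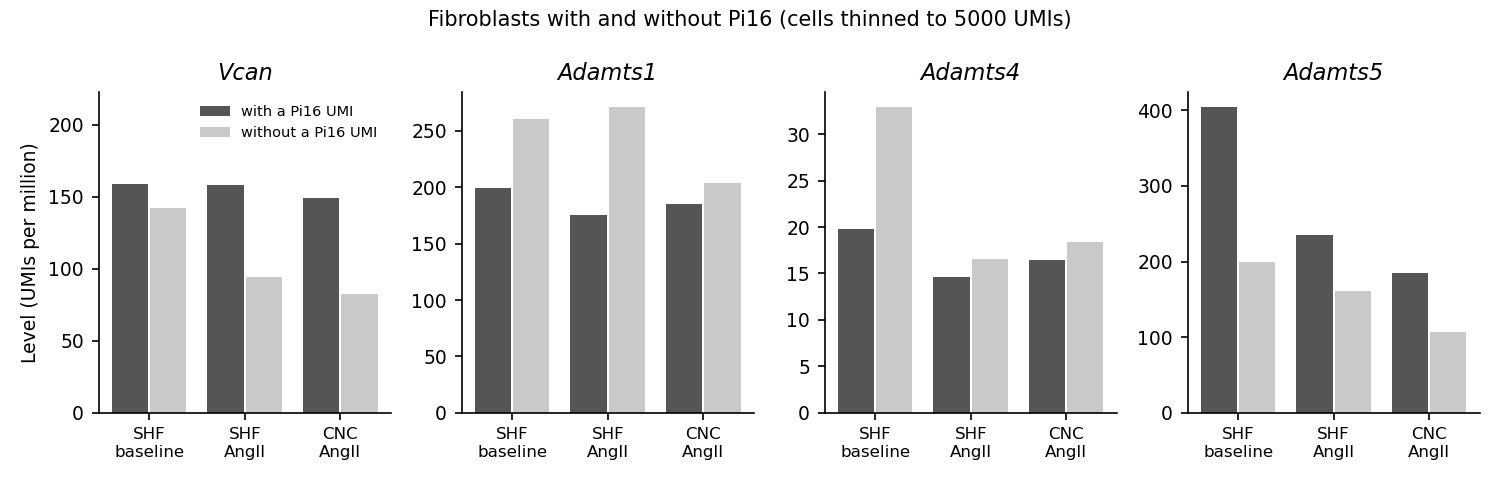
Levels in CPM of Vcan, Adamts1, Adamts4 and Adamts5 in thinned fibroblasts with (dark) and without (light) a Pi16 UMI, by library; each panel has its own axis from 0. Levels of Vcan and Adamts5 were higher, and those of Adamts1 and Adamts4 lower, in cells with Pi16 in each of the 3 libraries, with no interval computed. Adamts4 stood at 14.6 and 16.6 CPM in SHF AngII and at 16.4 and 18.4 in CNC AngII. Pi16 was chosen for its likeness to Vcan in the AngII libraries, so the Vcan bars of these libraries restate that choice.

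The wider machinery of these proteoglycans was read from gene lists. Of the hyaluronan synthases, Has1 stood at 92.7, 97.6 and 76.0 CPM in fibroblasts of SHF baseline, SHF AngII and CNC AngII, Has2 at 10.5, 2.85 and 3.14, and Has3 at or under 0.343. All 3 were at or under 1.60 CPM in smooth muscle cells, the cells that held Acan. The link protein gene Hapln2 was missing from the gene list of SHF baseline. Where listed, the link proteins Hapln1, Hapln2, Hapln3 and Hapln4, which lock hyalectans onto hyaluronan, were at or under 1.11 CPM in smooth muscle cells. Cd44, a hyaluronan receptor, stood at 34.4, 36.0 and 44.4 CPM there, and Hyal1, Hyal2 and Cemip2, which degrade hyaluronan, at or under 23.6. Cemip, a hyaluronan-degrading protein, stood in fibroblasts at 0.132, 24.8 and 49.2 CPM, and Hmmr, a hyaluronan receptor of dividing cells, at 2.98, 39.3 and 46.7. The 5 cycling markers summed to 18.6, 312 and 327 CPM in these fibroblasts.

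Among the other hyalectanases, Adamts9 stood at 15.6, 22.1 and 22.1 CPM in smooth muscle cells and Adamts8 at 13.5, 12.2 and 11.9, while Adamts15 stood at 12.4, 5.11 and 1.85 and Adamts20 under 0.1. Adamts15 in fibroblasts was at 27.4, 23.2 and 22.0 CPM. No gene of this list was past a log2 ratio of 1 at the 10 CPM minimum in either gate and comparison. Adamts15 in smooth muscle cells, with means below that minimum, had log2 ratios of -1.13 for SHF AngII over SHF baseline and -1.10 for CNC AngII over SHF AngII.

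Inhibition of ADAMTS1, ADAMTS4 and ADAMTS5 was not measured. In the list of metalloprotease inhibitors and a clearance receptor, Timp1, a secreted inhibitor, differed most between SHF AngII and SHF baseline. It went from 23.3 CPM in SHF baseline to 277 in SHF AngII in smooth muscle cells and from 202 to 3267 in fibroblasts. CNC AngII held 257 and 2964 CPM. Timp3, the main natural inhibitor of ADAMTS4 and ADAMTS5, stood at 696, 445 and 458 CPM in smooth muscle cells and at 1376, 1282 and 2103 in fibroblasts. Timp2 was at 480, 843 and 944 CPM in smooth muscle cells. Lrp1, the receptor that clears ADAMTS5 from the matrix, stood at 170, 134 and 140 CPM there and at 967, 665 and 605 in fibroblasts. Of the 4 genes of this list at the minimum, Timp1 alone was past a log2 ratio of 1 for SHF AngII over SHF baseline, in each gate.

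Of the genes that activate or assist the proteases, Furin, a proprotein convertase, stood between 25.5 and 34.4 CPM in both gates of all libraries. Pcsk6, another convertase, stood in fibroblasts at 143, 24.9 and 23.7 CPM. Fbln1, a cofactor of ADAMTS1, stood there at 1412, 588 and 452 CPM, and in smooth muscle cells at 38.9, 31.3 and 2.59. The 8 fibroblast markers summed to 2708, 3351 and 3392 CPM in the smooth muscle gate. Among them Col1a1 stood at 709, 1105 and 1138 CPM and Col1a2 at 1504, 1897 and 2201, and these gave most of each sum. Dcn stood at 311, 174 and 20.3 CPM. Lum went from 75.3 CPM in SHF AngII to 8.83 in CNC AngII, and Dpt, Serpinf1, Pi16 and Cd34 fell between these libraries too. The part of fibroblast RNA in the Fbln1 value was not tested. Fbln2, a ligand of aggrecan and versican, stood in smooth muscle cells at 12.7, 84.5 and 104 CPM. Sdc4 stood at 287, 373 and 398 CPM.

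The enzymes that build chondroitin sulfate differed little between the lineages. Of 18 genes, 9 were at the minimum for CNC AngII over SHF AngII in smooth muscle cells, and all 9 were higher, with a median log2 ratio of 0.16 beside 0.00 for all genes and none past 1. For SHF AngII over SHF baseline 4 of 7 were higher, with a median of 0.56 beside -0.10. Chst12, a sulfotransferase, stood at 33.0, 73.3 and 73.9 CPM and was the 1 gene past 1. Xylt1, which starts the chains, stood in fibroblasts at 29.2, 7.02 and 8.73 CPM. The chondrogenic factor Sox9 stood in smooth muscle cells at 33.5, 26.7 and 31.0 CPM, Sox6 at 18.4, 11.7 and 10.5 and Sox5 at 11.1, 7.41 and 6.26, so none was past 1. The 8 cartilage markers other than Acan summed to 12.1, 29.1 and 9.55 CPM in smooth muscle cells. Matn1 was at 0 in each library, and Col2a1 at 0, 0.820 and 0.0417 CPM.

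**Figure D5:**
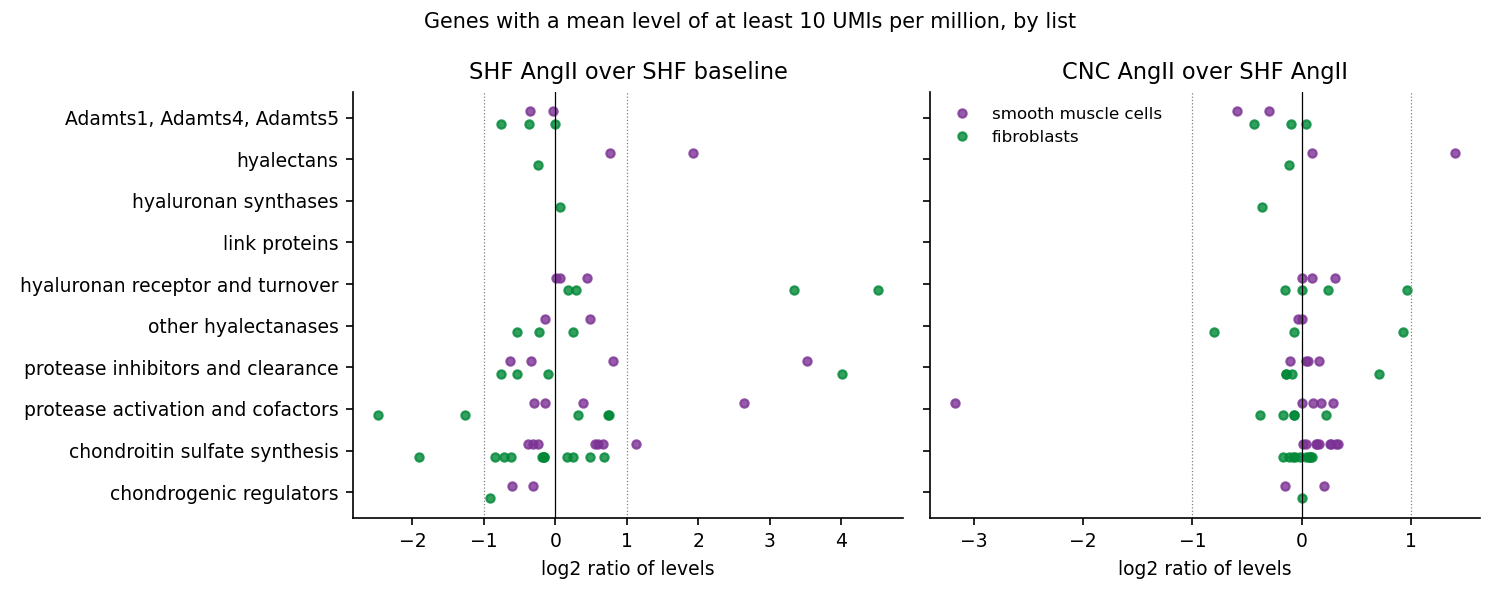
Log2 ratios of the genes with a mean of at least 10 CPM, by list, in smooth muscle cells (purple) and fibroblasts (green), for SHF AngII over SHF baseline (left) and CNC AngII over SHF AngII (right); dotted lines mark -1 and 1. Acan, at 1.92 and 1.40, is the farthest hyalectan to the right in both panels, and Timp1 and Cemip in fibroblasts reached 4.01 and 4.51 in the left one.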

How the data were processed

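Per the file headers, the deposited files hold raw UMI counts (genes by cell barcodes), not normalised. The submitters' processing notes name mm10, fastp, STAR 2.5 and HTSeq 0.6.1, with no role given. Members and gene lists were chosen with earlier results of these data known. The AngII files list 32285 genes and the baseline file 18760, with older names. A total of 519 names were matched by synonym, 13 duplicate names were left out, and 18113 genes were common. Kept cells had 500 or more genes and no more than 10% mitochondrial UMIs, and Scrublet doublets (scanpy 1.11.5) were left out: 205, 191 and 277 cells of SHF baseline, SHF AngII and CNC AngII. UMIs were summed per gate and scaled to the gate's total (CPM). Ratios are log2((CPM + 1)/(CPM + 1)). Intervals are exact Poisson for levels, conditional binomial for ratios and Clopper-Pearson for shares, and cover counting error at 95% only. Genes were called past a log2 ratio of 1 at a mean of at least 10 CPM. The ratio step was tested on simulated data. Cells were thinned to 5000 UMIs for shares. The 5 members, Spp1 and Igfbp2 are always named. A list gene is named if its list has at most 6 genes or if it passes 1, and the 5 genes most like Acan and 3 most like Vcan are named. Not all of them are printed. TMM used edgeR 4.0.16.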

Additional observations from a re-analysis of the deposited data

Results flagged for a closer look

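The log2 ratios of Vcan had opposite signs in the 2 cell gates, and the difference was not tested, since each group had 1 library. For SHF AngII over SHF baseline its log2 ratio was 0.76 in smooth muscle cells and -0.24 in fibroblasts. For CNC AngII over SHF AngII the values were 0.09 and -0.12. The fibroblast ratio of SHF AngII over SHF baseline was -0.04 (-0.09 to 0.01) under TMM scaling, and the smooth muscle ratio of CNC AngII over SHF AngII was -0.03 under the stricter cell filter. After thinning, the share of cells with a Vcan UMI went from 12.5 to 19.8% in smooth muscle cells and from 38.9 to 44.2% in fibroblasts, from SHF baseline to SHF AngII.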

How the results depend on the processing

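Of 74 alternative values of the Acan ratios in smooth muscle cells and of its detection with and without Spp1 or Igfbp2, 66 differed from the value reported by no more than the distance from the middle of its counting interval to either end and none changed the direction of a value whose interval excluded 0. The Acan ratio of SHF AngII over SHF baseline was 2.09 with TMM scaling and 1.57 with a pseudocount of 10 CPM. That of CNC AngII over SHF AngII was 1.51 with the stricter cell filter (at least 1000 genes, at most 5% mitochondrial UMIs) and 1.31 with a pseudocount of 10 CPM. The Spp1 difference in SHF AngII was 3.99 points (-1.58 to 10.9) when cells were thinned to 2000 UMIs. The Igfbp2 difference in SHF baseline was -10.9 points with the stricter filter, from 11 cells with Igfbp2. In SHF AngII it was 2.24 points (0.307 to 4.19) when cells were thinned to 2000 UMIs and 14.8 without thinning, and in CNC AngII 10.8 without thinning. Of 216 alternative values of the other member ratios, 184 differed by no more than that, 31 by more without a change of a direction that the interval fixed, and 1 changed it. That 1 was the Vcan ratio of CNC AngII over SHF AngII in smooth muscle cells, -0.03 with the stricter filter. The cause was not tested. Genes past a log2 ratio of 1 in smooth muscle cells, SHF AngII over SHF baseline, numbered 200 higher and 247 lower, 82 and 80 at a minimum of 50 CPM, 427 and 457 with no minimum, and 301 and 154 with TMM scaling. For CNC AngII over SHF AngII they were 30 and 24, 2 and 6, 220 and 108, and 32 and 28. In fibroblasts the first comparison gave 357 and 823, 148 and 239, 749 and 1434, and 517 and 508, and the second 33 and 11, 9 and 3, 148 and 42, and 33 and 12. TMM scaling moved the median of all genes from -0.21 to -0.01 in fibroblasts. No paired analysis was possible because each group had 1 library. Few UMIs were counted for Acan in fibroblasts, 32 to 47 per library, and for Adamts4 in smooth muscle cells, 68 to 102. The fibroblast Acan UMIs were 45 in 13 cells of SHF baseline, 47 in 26 of SHF AngII and 32 in 20 of CNC AngII.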

Other observations

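Chsy3, an enzyme that extends chondroitin sulfate chains, was chosen after its values were seen, since its mean level over SHF AngII and SHF baseline was below 10 CPM. It stood at 0.541, 14.7 and 16.5 CPM in smooth muscle cells of SHF baseline, SHF AngII and CNC AngII, and at 0.343, 6.50 and 5.59 CPM in fibroblasts. The baseline file was made with a shorter gene list and older gene names than the AngII files, and the part of that in this value was not tested.

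In fibroblasts Acan was also read beside Spp1. In SHF baseline 4 of 107 thinned fibroblasts with Spp1 held an Acan UMI (3.74%, exact binomial interval 1.03 to 9.30%), beside 2 of 3115 without. The SHF AngII counts were 2 of 223 and 10 of 2281, and the CNC AngII counts 3 of 106 and 5 of 663. Adamts5 stood lower in fibroblasts with Spp1, at 198, 112 and 94.3 CPM in SHF baseline, SHF AngII and CNC AngII, beside 373, 231 and 178 CPM without it.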
